A study of Mus musculus with 13 samples.

Results

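Heat shock chaperones are proteins that hold, fold or refold other proteins, and the genes for them are classically turned on together by heat shock factor Hsf1 when cells are stressed. Hsp70 proteins bind and release unfolded clients, Hsp40 cochaperones such as Dnajb1 deliver clients and start the Hsp70 cycle, Hsp110 proteins such as Hsph1 reset it, Hsp90 proteins finish signalling clients, Hspd1 and Hspe1 form the mitochondrial folding chamber, and small heat shock proteins such as Hspb1 keep clients from clumping. Dividing cells of the early embryo express several of these genes at a high level without any stress, while others are low until induced.

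The set described here holds 10 genes of 23217 in the deposited table, namely Dnajb1, Hspa1a, Hspa1b, Hspa8, Hsp90aa1, Hsp90ab1, Hsph1, Hspb1, Hspd1 and Hspe1. Dnajb1 was chosen by its difference between the embryo groups, so that difference is given as a description and carries no test. The other 9 were chosen by their names as heat shock chaperones, to ask whether they differ in the way Dnajb1 does. Polyadenylated RNA was sequenced from whole mouse embryos of embryonic day 9.5 on a C57BL/6J background, 10 labelled xHomo and 3 labelled xHet in the genotype field. The series is about Tet1, an enzyme that oxidizes methylated cytosine, in the erasure of imprints. As far as is known the embryos descend from Tet1-mutant fathers, which the labels do not state, and the labels neither spell out xHomo and xHet nor give litter, sex or batch.

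Levels are in FPKM, which scales fragments by transcript length and library size. Summed FPKM per embryo was 500126 to 662936 in xHomo and 543948 to 570161 in xHet embryos, and read depth is unknown. Genes with a mean of at least 1 FPKM over the 13 embryos were tested, 12755 in all, and 10 of 10 chaperones were among them. Hspa1a passed this filter through a single embryo, since its mean was 1.03 FPKM and 0.811 FPKM without xHomo embryo 9. All 15 embryo tissue markers examined were detected in all embryos. Placental and decidual markers were low but present, with a summed level of 4.37 to 14.8 FPKM in xHomo and 7.16 to 9.05 FPKM in xHet embryos, most of it from Dcn (2.88 to 9.17 FPKM in xHomo and 5.39 to 5.77 FPKM in xHet embryos). Of the trophoblast genes Prl3b1 reached 3.28 FPKM in xHomo and 2.69 FPKM in xHet embryos, and Tpbpa and Prl8a9 were listed at 0 in all; the part of such cells in the chaperone values was not tested. In whole embryos, fewer cells of a type and less RNA per cell cannot be told apart. A distance of 1 log2 unit or more to the xHet mean was seen for 10.2% of tested genes in xHomo embryo 3 and 4.56% in xHomo embryo 9, against 1.45% to 2.30% in the other xHomo and 0.917% to 0.956% in the xHet embryos.

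Upstream sequences are given as a description. Genes chosen by name as heat shock chaperones are likely to hold heat shock units, so the share below is not free of that choice. RefSeq promoter entries on GRCm38.p6 were found for 7 of 10 genes, and the 250 bases before each listed start were searched for a pair of inverted heat shock units, GAANNTTC or TTCNNGAA, each of which reads the same on both strands. The 7 genes have 10 listed starts, and 7 of these 10 windows held either motif, against 12.8% of all 32851 such windows. The 7 are not independent, since the windows of Hspa1a and Hspa1b, of Hspd1 and Hspe1 and of both Hsph1 starts share a stretch. Dnajb1 and the other start of Hspd1 had none. For Dnajb1, a window lies downstream of the other listed start. For Hspd1, the window with matches lies downstream of the other listed start. In the stretches printed here, capitals mark the motifs and all other bases are in lower case.

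Hspa1a and Hspa1b are shown because they are near copies. Their 250 upstream bases differed at 3 positions, and the stretches around the motif are identical (chr17:34972233-34972280 and chr17:34959315-34959362, both minus strand):
Hspa1a: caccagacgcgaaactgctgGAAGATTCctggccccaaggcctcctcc
Hspa1b: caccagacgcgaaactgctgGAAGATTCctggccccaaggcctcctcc

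Hspd1 and Hspe1 lie head to head with 215 bases between their loci in the mm9 table, and their promoter windows hold the same stretch read from opposite strands (chr1:55088039-55088096). It holds 3 overlapping motifs, and 0.466% of all windows had 3 or more units in a row:
Hspd1: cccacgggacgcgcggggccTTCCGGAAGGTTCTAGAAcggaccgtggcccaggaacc
Hspe1: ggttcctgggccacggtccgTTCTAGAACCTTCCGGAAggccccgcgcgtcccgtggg

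Hspb1 and Hsph1 each had matches too (chr5:135887782-135887849, plus strand, and chr5:149636342-149636389, minus strand). Dnajb1 had no match in the windows of its 2 listed starts, of which only the window of the first start lies before both. The 100 bases before the first start are shown beside Hspb1 and Hsph1 (chr8:83608075-83608174, plus strand):
Hspb1: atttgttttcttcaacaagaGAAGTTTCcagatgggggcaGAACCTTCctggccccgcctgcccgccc
Hsph1: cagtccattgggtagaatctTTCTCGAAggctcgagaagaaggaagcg
Dnajb1: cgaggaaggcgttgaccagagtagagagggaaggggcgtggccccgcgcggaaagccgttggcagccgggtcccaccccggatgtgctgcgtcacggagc
A match describes letters and not a bound site. The absence of one says only that these letters are not in this window.

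Copies elsewhere in the genome limit how surely reads can be placed. Of the 50-base words in its first GENCODE M21 transcript, Hspa8 shared 73.2% with transcripts of other genes, Hsp90aa1 65.6%, Hspa1b 62.3%, Hspa1a 60.4%, Hspb1 58.9%, Hspd1 44.8% and Hspe1 36.1%. The shares were 4.49% for Hsp90ab1 and 0.407% for Dnajb1, and no word of Hsph1 was shared. The closest other genes were Hspa1b for Hspa1a and pseudogenes such as Hsp25-ps1 for Hspb1 and Hspd1-ps3 for Hspd1. How the deposited quantification divided such reads is not given in the sources used here, so values of genes with large shared parts are uncertain. No other locus in the table overlapped that of any of the 10 genes.

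On the FPKM scale, which is per length, levels averaged over all 13 embryos ran in the order Hspa8 (1618 FPKM), Hsp90ab1 (1389), Hsp90aa1 (579), Hspd1 (359), Hspe1 (327), Hsph1 (59.1), Dnajb1 (20.1), Hspb1 (18.3), Hspa1b (1.77) and Hspa1a (1.03). Hspa8, the constitutive Hsp70, ranked 48 among the tested genes by level. The heat-inducible Hsp70 genes Hspa1a and Hspa1b stood last. Neighbours in this order had overlapping values in the xHomo embryos for Hspa8 with Hsp90ab1, Hsp90aa1 with Hspd1, Hspd1 with Hspe1, Dnajb1 with Hspb1 and Hspa1b with Hspa1a. In the xHet embryos, where Hspa8 and Hsp90ab1 also overlapped, Dnajb1 lay above Hspb1 in all 3 embryos.

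**Figure D1:**
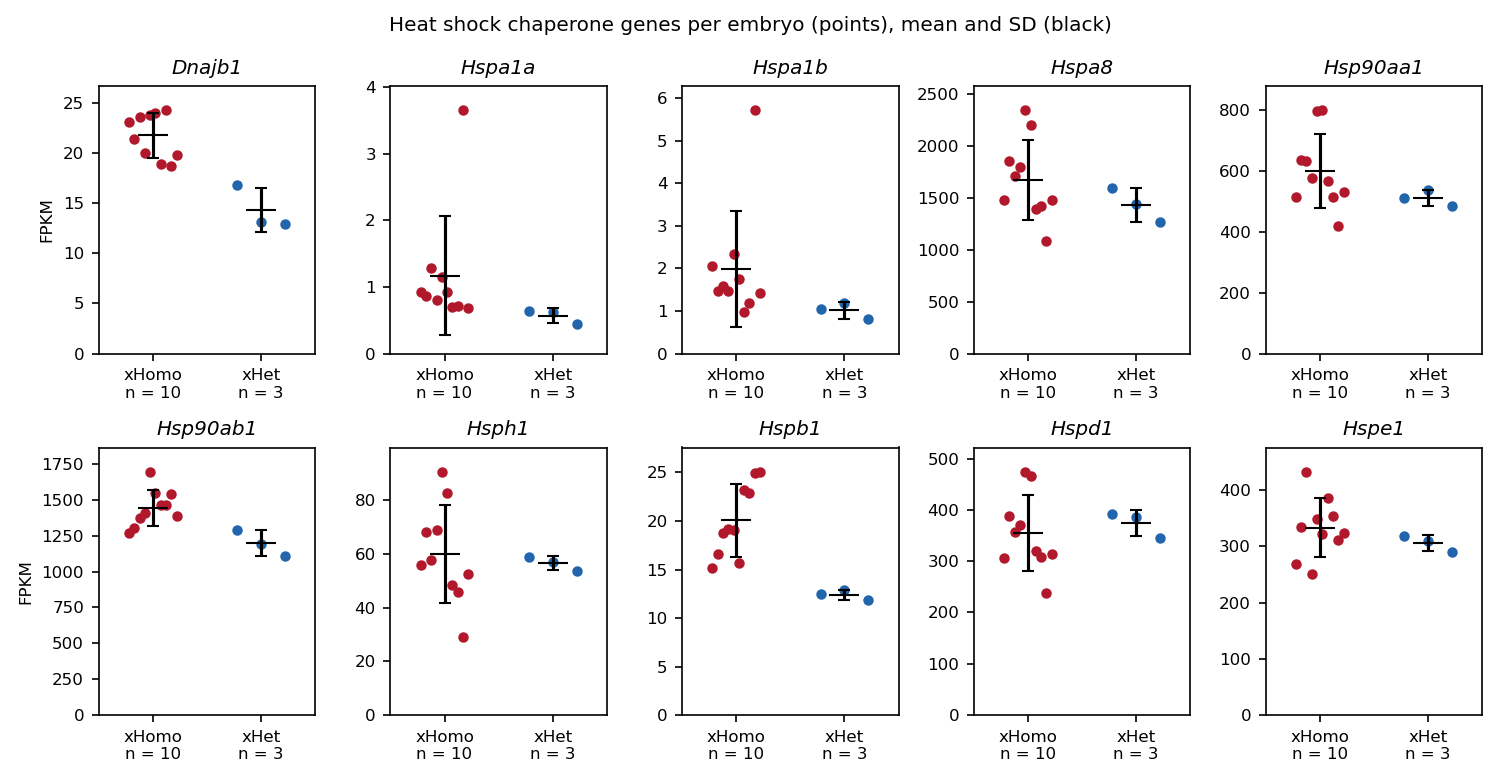
FPKM of the 10 chaperone genes, with 1 point per embryo, xHomo embryos (n = 10) left of xHet embryos (n = 3) in each panel, and the mean with its SD in black. Dnajb1, Hspb1 and Hspa1a have 10 xHomo points above all xHet points, as did 1.66% of tested genes. Dnajb1 was chosen by this difference. For Hspa1a the margin is small (lowest xHomo 0.69, highest xHet 0.64 FPKM). For Hspa1a and Hspa1b 1 xHomo embryo stands far above the rest. Without that embryo the mean of Hspa1a was 0.811 FPKM, below the filter of 1 FPKM.

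Dnajb1, the Hsp40 cochaperone on chromosome 8 (mm9 86132074 to 86135802), had 18.7 FPKM at the lowest, 22.3 at the median and 24.3 at the highest in xHomo embryos, against 16.9, 13.1 and 12.99 FPKM in xHet embryos 1 to 3. All 10 xHomo embryos were above the highest xHet embryo, and 1.66% of tested genes had groups that did not overlap in this direction. Its means were 21.8 ± 2.26 FPKM in xHomo (SD, n = 10) and 14.3 ± 2.20 FPKM in xHet embryos (SD, n = 3), 1.52 times as high in xHomo, with a difference of 0.58 on the log2(FPKM + 1) scale. These are the values it was chosen by, and nothing is read from them. Its SD of log2(FPKM + 1) was 0.15 among xHomo embryos, where 12.8% of tested genes had a smaller one, and 0.20 among xHet embryos. Choice by a group difference favours genes with a small SD, so this too is only a description.

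Of the other 9 chaperones, 0 passed between xHomo and xHet embryos in limma with Benjamini-Hochberg adjustment over all tested genes. In the background 0.0235% of tested genes passed as higher in xHomo embryos and 0% as lower. At an unadjusted limma p under 0.05, 2 of the 9 were higher, Hspb1 and Hsp90ab1, and 0 were lower, where 7.63% of tested genes were higher and 1.72% lower. An exact permutation test per gene, adjusted over all genes, also called 0. With 286 possible splits of the embryos its smallest p was 0.0035. After adjustment over all tested genes that is too large for any gene to pass on its own. Its 0 therefore adds nothing to the limma result. The log2 differences were above 0 for 8 of 9 genes with a median of 0.20, against 59.7% of all tested genes and a median of 0.05. The median of the 9 was 0.02 after TPM rescaling without small RNA genes, which moved the median of all genes to -0.11, and -0.0058 after quantile normalization. With Dnajb1 included, 9 of 10 differences were positive as deposited, 7 after that TPM rescaling and 5 after quantile normalization. The 8 are not independent, since Hspa8, Hsp90aa1 and Hsph1 rose and fell together among xHomo embryos.

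**Figure D2:**
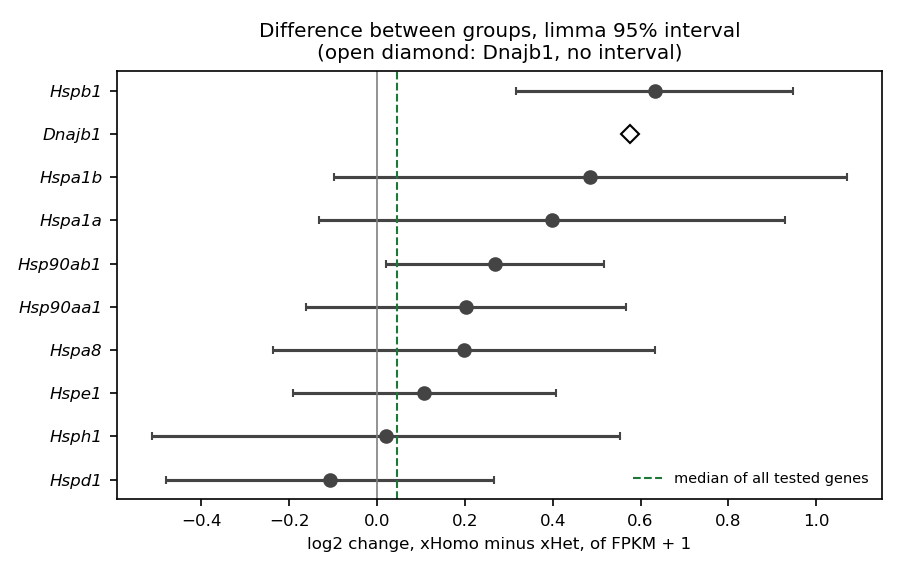
Log2 difference of FPKM + 1, xHomo minus xHet, for each chaperone gene, with the limma 95% interval as a bar for the 9 genes other than Dnajb1. The intervals of Hspb1 (0.32 to 0.95) and Hsp90ab1 (0.02 to 0.52) lie above 0 and the other 7 include it.

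Hspb1, the small heat shock protein also called Hsp25 in mouse (chromosome 5, 136363789 to 136365433), was, with Hspa1a, one of 2 genes among the 9 whose groups did not overlap, where 1.66% of tested genes did the same. Hspa1a was tested only through its value in xHomo embryo 9. Hspb1 had 15.2, 19.1 and 25.1 FPKM at the lowest, median and highest in xHomo embryos, against 12.5, 12.9 and 11.8 FPKM in xHet embryos 1 to 3. All 10 xHomo embryos lay above all 3 xHet embryos. Hspb1 averaged 20.1 ± 3.74 FPKM in xHomo (SD, n = 10) and 12.4 ± 0.527 FPKM in xHet embryos (SD, n = 3), a log2 difference of 0.63 (SE 0.15, 95% interval 0.32 to 0.95, limma adjusted p = 0.346). Over the 26 alternative settings its limma or exact permutation adjusted p ran from 0.00293, with array weights, to 0.966, without xHet embryo 3. With array weights 2779 of all genes passed as well, and its log2 difference stayed between 0.41 and 0.72 in all 26.

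Hspa8, the constitutive Hsp70 of the cytosol (chromosome 9, 40609356 to 40613282), had 1081, 1594 and 2342 FPKM at the lowest, median and highest in xHomo embryos, against 1593, 1437 and 1265 FPKM in xHet embryos 1 to 3. The groups overlapped, with 5 xHomo embryos above and 1 below all xHet embryos. Its means were 1674 ± 386 FPKM in xHomo and 1432 ± 164 FPKM in xHet embryos (SD, n = 10 and 3), a log2 difference of 0.20 (95% interval -0.24 to 0.63, limma adjusted p = 0.777), and the sign turned under quantile normalization.

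Hspa1a and Hspa1b encode the Hsp70 that heat and other stress induce (chromosome 17, 35106304 to 35109101 and 35093374 to 35096183, with 10120 bases between them). Hspa1a had 0.69, 0.89 and 3.65 FPKM at the lowest, median and highest in xHomo embryos, against 0.64, 0.62 and 0.44 FPKM in xHet embryos 1 to 3. The groups did not overlap, though the lowest xHomo value lay close to the highest xHet value. Hspa1b had 0.97, 1.53 and 5.72 FPKM in xHomo embryos, against 1.04, 1.19 and 0.81 FPKM in xHet embryos 1 to 3, and these overlapped. Both highest values were of xHomo embryo 9, where Hspa1a exceeded the xHet mean by 1.57 and Hspa1b by 1.74 on the log2 scale. The log2 differences were 0.40 for Hspa1a (95% interval -0.13 to 0.93, limma adjusted p = 0.613) and 0.49 for Hspa1b (-0.10 to 1.07, limma adjusted p = 0.582). Without xHomo embryo 9 they were 0.27 and 0.35 (limma adjusted p = 0.537 for both). At pseudocounts of 0.1 and 5 the difference was 0.76 and 0.14 for Hspa1a, and 0.75 and 0.20 for Hspa1b.

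Hsph1, the Hsp110 nucleotide exchange factor that works with Hsp70 (chromosome 5, 150419420 to 150438890), had 29.0, 56.7 and 90.5 FPKM at the lowest, median and highest in xHomo embryos, against 58.9, 57.0 and 53.8 FPKM in xHet embryos 1 to 3. The xHomo values ran on both sides of the xHet range, with 4 above and 4 below it. The log2 difference was 0.02 (95% interval -0.51 to 0.55, limma adjusted p = 0.981), and its sign turned under each of the 4 other scalings. Its SD of log2(FPKM + 1) among xHomo embryos was 0.46, which 93.2% of tested genes stayed under, and among xHet embryos 0.07. Over all tested genes the median SD was 0.23 in xHomo and 0.10 in xHet embryos.

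Hsp90ab1, the constitutive Hsp90 of the cytosol (chromosome 17, 45704727 to 45710210), had 1269, 1437 and 1696 FPKM at the lowest, median and highest in xHomo embryos, against 1291, 1195 and 1111 FPKM in xHet embryos 1 to 3. In 9 of 10 xHomo embryos it was above all xHet embryos, and its SD among xHomo embryos was 0.12 on the log2 scale. The log2 difference was 0.27 (95% interval 0.02 to 0.52, limma adjusted p = 0.518). It passed with array weights (limma adjusted p = 0.0229), and its sign turned under quantile normalization. Hsp90aa1, its more inducible paralog (chromosome 12, 111929246 to 111934605), had 419, 572 and 799 FPKM in xHomo embryos, against 512, 537 and 485 FPKM in xHet embryos 1 to 3, and the groups overlapped. Its log2 difference was 0.20 (95% interval -0.16 to 0.57, limma adjusted p = 0.723).

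The mitochondrial pair came next. Hspd1, the Hsp60 barrel (chromosome 1, 55134678 to 55144776), had 237, 339 and 474 FPKM at the lowest, median and highest in xHomo embryos, against 393, 385 and 346 FPKM in xHet embryos 1 to 3. It was the only one of the 9 with a negative log2 difference on the deposited scale (-0.11, 95% interval -0.48 to 0.27, limma adjusted p = 0.864), which turned positive with Xist as a covariate, and 5 xHomo embryos lay below all xHet embryos. Hspe1, the Hsp10 lid of that barrel (chromosome 1, 55144992 to 55148161), had 251, 329 and 433 FPKM in xHomo embryos, against 318, 309.7 and 290.0 FPKM in xHet embryos 1 to 3. The groups overlapped, with a log2 difference of 0.11 (95% interval -0.19 to 0.41, limma adjusted p = 0.828) whose sign turned after TPM rescaling without small RNA genes and after quantile normalization.

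**Figure D3:**
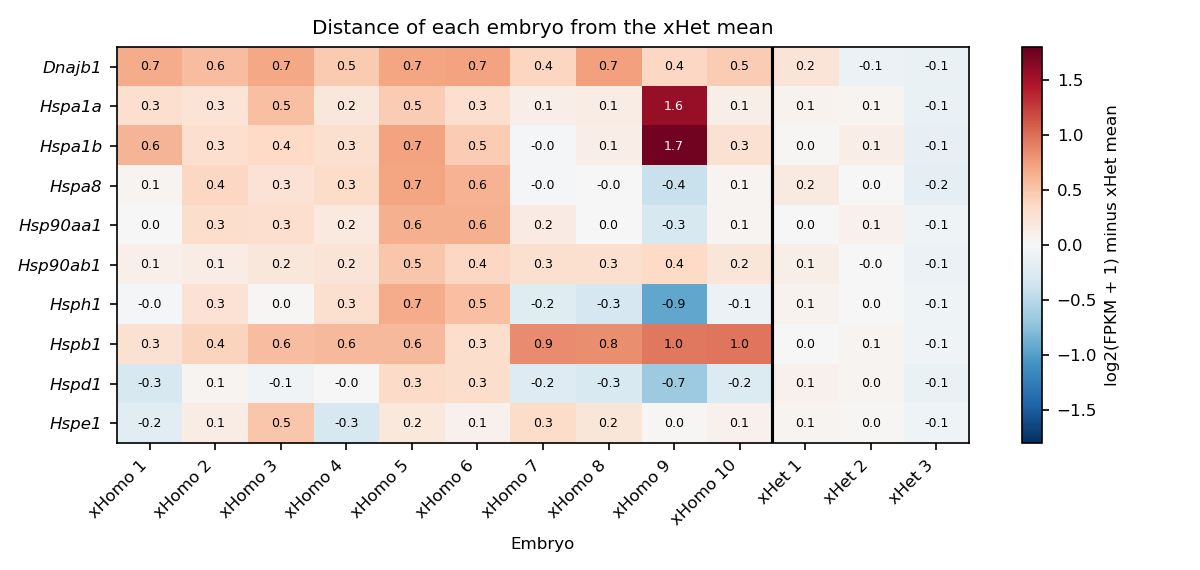
Log2(FPKM + 1) of each gene (rows) in each embryo (columns, xHomo left of the black line and xHet right of it) minus the mean of the 3 xHet embryos. Dnajb1 is 0.37 to 0.73 above that mean in the 10 xHomo embryos, while Hsph1 runs from -0.94 in xHomo embryo 9 to 0.67 in xHomo embryo 5.

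The 45 pairs of chaperones were compared over the variation among the 10 xHomo embryos. Dnajb1 was chosen by its group difference, which favours a small spread within a group, so its own pairs are not free of that choice. All 17 pairs with Hspa1a or Hspa1b were set aside, because xHomo embryo 9 stood far from the rest. Among the 28 pairs that remained, 6 passed by Pearson r and the same 6 by Spearman rho (permutation test, 100000 resamples, two-sided, adjusted over the pairs of each measure). They are the 6 pairs among Hspa8, Hspd1, Hsp90aa1 and Hsph1.

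Hspa8 and Hspd1 gave Pearson r = 0.991 (permutation adjusted p = 0.000187) and Spearman rho = 0.891 (permutation adjusted p = 0.00583). Leaving out the 2 embryos most distant from the Hspa8 median gave r = 0.977. Hspa8 and Hsph1 gave r = 0.980 (permutation p = 1e-05, the smallest these resamples can give, adjusted p = 0.000187) and rho = 0.976 (permutation adjusted p = 0.00084), and r = 0.967 when the same was done. The other 4 pairs had r of 0.921 to 0.981 and rho of 0.891 to 0.964. All 4 genes were highest in xHomo embryos 5 and 6 and lowest in xHomo embryo 9. There Hspa8 stood at 2342, 2197 and 1081 FPKM and Hsph1 at 90.5, 82.6 and 29.0 FPKM.

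These 4 genes lie on 4 chromosomes. Embryos share a scale within each library, and r above 0.9 with Hspa8 was found for 1.43% of all tested genes, so this pattern reached beyond chaperones. By Pearson r the 6 pairs passed under each alternative scaling, pseudocount or left-out embryo in which they were computed. Without xHomo embryo 9, 3 pairs passed by Pearson r and 1 by Spearman rho, and the 3 pairs with Hsp90aa1 were not computed because its values then fell into separate clusters.

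Dnajb1 was in none of the pairs that passed. Its r with Hspa8 was 0.590 (permutation p = 0.0753, adjusted p = 0.19), with Hsp90aa1 0.570, with Hspd1 0.558 and with Hsph1 0.545 (permutation adjusted p = 0.19 each). When the 2 embryos most distant from the Dnajb1 median were dropped, r with these 4 genes was 0.11 to 0.38. These 4 pairs passed after both TPM rescalings, where r with Hspa8 was 0.793 with small RNA genes kept (permutation adjusted p = 0.0253) and 0.778 without them (permutation adjusted p = 0.0206). Hspb1, which did not overlap between the groups either, had a negative r with Dnajb1 among the xHomo embryos that did not pass (-0.599, permutation p = 0.0686, adjusted p = 0.19). Without xHomo embryo 1, Hspb1 passed as negatively correlated with Hspa8, Hsp90aa1, Hspd1 and Hsph1 (r of -0.83 to -0.79, permutation adjusted p of 0.0201 to 0.0259). Hspd1 and Hspe1, which share their upstream stretch, did not pass as a pair, since r was 0.0955 (permutation p = 0.795, adjusted p = 0.891) and rho 0.176.

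**Figure D4:**
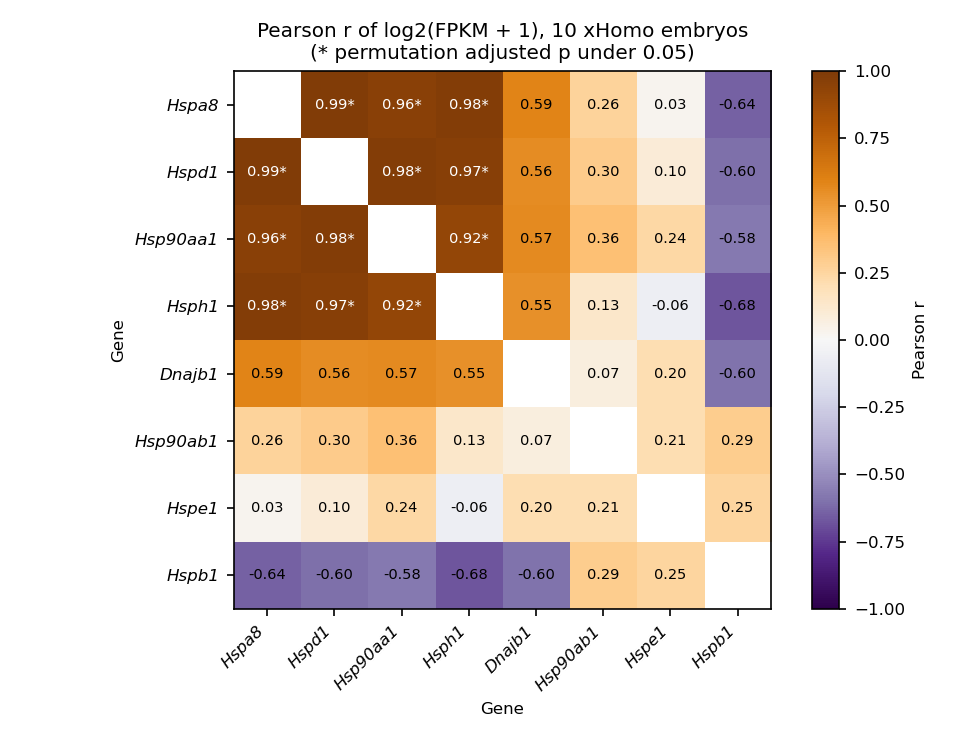
Pearson r of log2(FPKM + 1) over the 10 xHomo embryos for the pairs of 8 chaperone genes, with an asterisk where the permutation p adjusted over the pairs was under 0.05. Hspa8, Hspd1, Hsp90aa1 and Hsph1 form the block with r of 0.921 to 0.991, and Hspb1 has negative r with each of them and with Dnajb1.

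Over all 13 embryos, the genes most like Dnajb1 among the tested genes were Pepd (Pearson r = 0.880), a gene for a peptidase of proline-containing dipeptides, Taf3 (0.861), a gene for a TFIID subunit, Lrch4 (0.848), Sfn (0.848), which encodes 14-3-3 sigma, and Trappc5 (0.842), which encodes a TRAPP vesicle tethering subunit. Over the 10 xHomo embryos alone their r was 0.627, 0.571, 0.459, 0.418 and 0.648. The 9 chaperones had r of 0.11 to 0.70 over the 13 embryos, with Hsp90ab1 nearest (0.698, rank 218 among the tested genes). These r are descriptions and include the difference Dnajb1 was chosen by.

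The rest of the chaperone network was described with 9 lists that share some genes, chosen with earlier results of these data known. Together they held 135 tested genes besides the 10, of which 0 passed in limma, with 15 (11.1%) higher and 1 (0.741%) lower at an unadjusted p under 0.05, where all tested genes gave 7.63% and 1.72%. An exact permutation test also called 0, but its smallest p of 0.0035 keeps any gene from passing on its own after adjustment. The median log2 difference was 0.08, against 0.05 for all tested genes. After TPM rescaling without small RNA genes it was -0.09, against -0.11. Hsf1, the main heat shock factor, averaged 24.0 ± 2.30 FPKM in xHomo and 24.6 ± 1.14 FPKM in xHet embryos (limma adjusted p = 0.899). Hsf2 averaged 19.99 ± 2.39 and Hsbp1, which binds Hsf1 and holds it back, 55.5 ± 5.84 FPKM in xHomo, against 20.3 ± 2.41 and 45.03 ± 3.57 FPKM in xHet embryos (limma adjusted p = 0.951 and 0.494).

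In the list named other heat-inducible genes, 17 of 24 had a positive and 7 a negative log2 difference, with 0 passing in limma. The median was 0.14, and -0.03 after TPM rescaling without small RNA genes. Not all 24 are heat-inducible. The list also holds the cold-inducible genes Rbm3 (log2 difference 0.13) and Cirbp (-0.27), and Hspa1l (-0.22), which heat does not induce. Bag3, an Hsp70 cochaperone that pairs with small heat shock proteins, averaged 8.58 ± 0.884 FPKM in xHomo and 6.95 ± 0.433 FPKM in xHet embryos (limma adjusted p = 0.494). Sqstm1, the autophagy receptor p62, averaged 26.8 ± 2.56 and Ubb, a polyubiquitin gene, 729 ± 75.5 FPKM in xHomo, against 22.2 ± 1.18 and 614 ± 52.2 FPKM in xHet embryos (limma adjusted p = 0.494 and 0.531).

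Of 40 other Hsp40 genes 25 were positive and 15 negative with a median of 0.03, against 0.05 for all tested genes, and the median was below 0 under each of the 4 other scalings (-0.13 after TPM rescaling without small RNA genes). Dnaja3, a mitochondrial Hsp40, averaged 16.1 ± 0.937 FPKM in xHomo and 13.5 ± 1.08 FPKM in xHet embryos (limma adjusted p = 0.481), and 10 of 10 xHomo embryos lay above all xHet embryos. The opposite held for Dnajc27, named after its values were seen, which averaged 4.80 ± 0.860 FPKM in xHomo and 6.23 ± 0.476 FPKM in xHet embryos (limma adjusted p = 0.518). Among all tested genes 1.66% lay wholly above and 0.58% wholly below. Of 21 other Hsp70 genes and exchange factors 17 were positive, with a median of 0.13 that was -0.04 after TPM rescaling without small RNA genes. Hspbp1, an Hsp70 exchange factor, averaged 34.9 ± 3.68 FPKM in xHomo and 28.6 ± 1.87 FPKM in xHet embryos (limma adjusted p = 0.494). Of 22 Hsp90 paralogs and cochaperones 16 were positive, with a median of 0.06 that was -0.11 after TPM rescaling without small RNA genes and below 0 after 2 further scalings. Cdc37, which brings kinases to Hsp90, averaged 99.5 ± 10.9 FPKM in xHomo and 79.9 ± 6.43 FPKM in xHet embryos (limma adjusted p = 0.494). None of these genes passed in limma.

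Of 6 tested small heat shock genes besides Hspb1 5 were positive, with a median of 0.26 that was 0.12 to 0.24 under the 4 other scalings. Hspb7, a small heat shock gene of heart muscle, averaged 3.89 ± 1.02 FPKM in xHomo and 2.73 ± 0.292 FPKM in xHet embryos (limma adjusted p = 0.531). Tnnt2, a marker of heart muscle, averaged 46.7 ± 6.16 FPKM in xHomo and 38.2 ± 1.55 FPKM in xHet embryos (limma adjusted p = 0.517), and its part in the Hspb7 values was not tested. All 13 tested subunits of the cytosolic TRiC chamber and of prefoldin, which fold actin and tubulin, were positive on the deposited scale, with 0 passing and a median of 0.20; under the other scalings 8 to 12 were positive and the median was 0.02 to 0.15. Cct5 averaged 236 ± 22.1 FPKM in xHomo and 196 ± 18.7 FPKM in xHet embryos (limma adjusted p = 0.507). Of 15 mitochondrial chaperones and proteases 11 were positive, with 0 passing and a median of 0.10 that was -0.08 after TPM rescaling without small RNA genes.

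Chaperones of the endoplasmic reticulum stood on the other side, with 15 of 17 negative, a median of -0.28 and 0 passing in limma. Under the 4 other scalings 15 to 17 were negative and the median was -0.45 to -0.33. Of this endoplasmic reticulum list, Hspa5, Hyou1, Hsp90b1, Dnajb9, Dnajb11, Dnajc3 and Dnajc10 also stand in the Hsp70, Hsp90 or Hsp40 lists. These lists are therefore not separate from it. Hyou1, the Hsp110 relative of that compartment, averaged 81.0 ± 25.4 FPKM in xHomo and 113 ± 8.35 FPKM in xHet embryos (limma adjusted p = 0.575). By embryo the median of this list was 1.21 log2 units below the xHet mean in xHomo embryo 3 and 0.65 below it in xHomo embryo 9. In the other 8 xHomo embryos it ran from -0.31 to 0.18, against -0.05 to 0.05 in the xHet embryos.

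**Figure D5:**
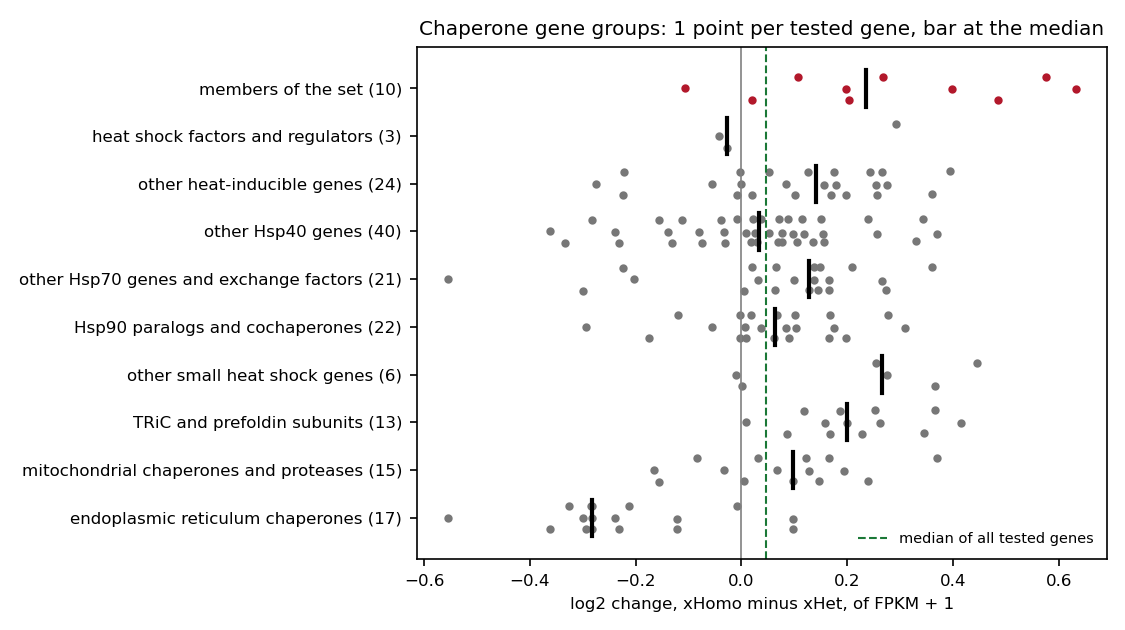
Log2 difference of FPKM + 1, xHomo minus xHet, for each tested gene (points) of the 10 chaperones and of 9 further lists, with the number of genes in brackets and a black bar at the median (0.24 for the 10 with Dnajb1 included). The dashed line is the median of all tested genes (0.05), and the endoplasmic reticulum list has its median at -0.28.

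Replication histone genes, immediate early genes and Xist are given beside the chaperones, and the source of their differences was not tested. On the deposited scale 59.7% of all tested genes had a positive log2 difference. All 56 tested replication histone genes had one, there and under the 4 other scalings. Relative to the mean of the xHet embryos, their median was 0.09 to 1.12 on the log2 scale in xHomo embryos and -0.08 to 0.09 in xHet embryos. Immediate early genes, which handling can induce, were positive in 11 of 12 (8 to 11 under the other scalings), with medians of -0.06 to 0.55 in xHomo and -0.04 to 0.01 in xHet embryos. Xist, which is transcribed from the inactive X, was 0.05 to 0.10 FPKM in 5 xHomo embryos and 0.05 to 0.08 FPKM in the xHet embryos, and 30.5 to 159 FPKM in the other 5 xHomo embryos. Dnajb1 was 20.1 to 24.3 FPKM in the 5 xHomo embryos with Xist near 0 and 18.7 to 23.7 FPKM in the other 5. Hspb1 was 15.2 to 22.9 FPKM in the former and 16.6 to 25.1 FPKM in the latter. In the xHet embryos Dnajb1 reached 16.9 and Hspb1 12.9 FPKM. The Dnajb1 values are those it was chosen by. The part of sex, histone or immediate early genes in the chaperone values was not tested.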

How the data were processed

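FPKM values for each gene in each embryo were deposited by the authors as 1 table, with loci on mm9. The submitters' processing notes name TopHat, Cufflinks and bcl2fastq 1.8.2. Per the labels' protocols, libraries were directional and made after poly(A) isolation. For annotation, strand setting and aligner version, the sources used here give nothing. In 41 low genes 14.5% of values lay within 0.05 of a whole multiple of the gene's smallest value above 0, so whole reads were not recovered, the depth per sample is unknown and no counting interval is given. Locus starts were raised by 1, because end minus start equalled the RefSeq gene length for 7169 symbols and was 1 below it for 455.

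Genes with a mean of at least 1 FPKM were tested on log2(FPKM + 1) with limma 3.58.1 in R 4.3.3 (eBayes with trend, two-sided, no covariates, Benjamini-Hochberg at 0.05). Fold changes on this scale understate low genes. With no litters given, p-values measure only the spread between these samples. Correlations used permutation tests (Python 3.11.15, scipy 1.17.1, numpy 2.4.6, pandas 2.3.3); a gene whose values had a gap wider than 0.5 of their range was left out. Figures used matplotlib 3.10.9. The limma and correlation steps were tested on simulated data. Genes named are the 10 chaperones, the 3 genes with the smallest p of a list (some of them given) and the 5 most like Dnajb1. The members and lists were chosen with earlier results of these data known. Promoter sequences are from RefSeq on GRCm38.p6.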

Additional observations from a re-analysis of the deposited data

Results flagged for a closer look

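In the 10 xHomo embryos, xHomo embryo 9 stood far from the others for Hspa1a and Hspa1b. On log2(FPKM + 1) the gap to the next embryo was 0.704 of the whole range for Hspa1a (3.65 FPKM, next 1.28 FPKM) and 0.572 for Hspa1b (5.72 FPKM, next 2.33 FPKM), against a Dixon critical value of 0.466 for 10 samples. About 1 group in 20 is expected to pass by chance, 10 genes were examined, and Hspa1a shares 58.8% of its 50-base words with Hspa1b, so the pair cannot be read as separate signals. In the same embryo Hspa8, Hsp90aa1, Hsph1 and Hspd1 had their lowest values (1081, 419, 29.0 and 237 FPKM), Hspb1 was at 25.0 FPKM, and the immediate early list had its highest median, 0.55 log2 units above the xHet mean. The part of any of these in the Hspa1a and Hspa1b values was not tested.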

How the results depend on the processing

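Under 26 alternatives per gene or fewer, 0 of the 9 chaperones other than Dnajb1 passed except with array weights, where 2 passed (Hspb1 and Hsp90ab1), beside 33 genes of the other chaperone lists and 2779 of all genes. The count over all genes, 3 as deposited, was 11 with no filter on low values, 1 with a mean of at least 5 FPKM, 5 after quantile normalization, 1 with the Xist covariate and 0 in the exact permutation test per gene. The smallest p of that exact test, 0.0035, is too large for any gene to pass on its own after adjustment. The count ran from 1 to 11 when 1 embryo was left out (1 without xHet embryo 2 or 3, 5 without xHomo embryo 2 and 11 without xHomo embryo 3). The replicate block over embryos numbered 1 to 3 called 1 gene and 0 of the 9 chaperones. Same-numbered embryos correlated at -0.0652, -0.0403 and -0.0383 in their deviations from the group means. All pairs of an xHomo and an xHet embryo ran from -0.143 to 0.116. With 3 xHet embryos these values cannot decide whether the numbers pair the embryos. The median of the 9 chaperones was 0.022 after TPM rescaling without small RNA genes and -0.0058 after quantile normalization. Signs turned, none of them past the threshold, for Hspa8 (-0.012), Hsp90ab1 (-0.0058) and Hspe1 (-0.016) after quantile normalization, for Hspe1 (-0.073) after TPM rescaling without small RNA genes and for Hspd1 (0.028) with the Xist covariate. Hsph1 turned to -0.026 after median-of-ratios scaling, -0.056 and -0.16 after TPM rescaling with and without small RNA genes, -0.063 after quantile normalization and -0.025 with array weights, and ran from -0.052 to 0.13 when 1 embryo was left out. The number of correlated pairs, 6 as deposited, was 11 and 14 after TPM rescaling with and without small RNA genes, 10 after quantile normalization and 3 to 10 when 1 xHomo embryo was left out (3 without embryo 9; 10 without embryo 1, where 4 pairs with Hspb1 were added). The causes were not tested, and with unknown depth the values of Hspa1a and Hspa1b are the least certain.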
